A study of Homo sapiens with 4 samples.

Results

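The C19MC cluster is an imprinted group of primate-specific miRNA genes on chromosome 19, known for its high expression in the placenta and in some embryonal tumours. Its members were followed here in HFE-145, a human stomach epithelial cell line that has been immortalised. They were taken by name as every listed mature strand of miR-498, miR-512, miR-515 to miR-527, miR-1283 and miR-1323, with any letter and either arm. This gave 59 entries of 2039 listed. Small RNA was sequenced in 2 vector libraries and 2 YAP5SA libraries, the latter from cells overexpressing YAP5SA, a form of the Hippo effector YAP mutated at sites through which the pathway restrains it. All libraries came from total RNA of the same line. The sources used here do not give the vector's make, the promoter behind YAP5SA or the number of clones.

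miRNAs are cut from hairpin transcripts as a 5p and a 3p arm, and pair with target mRNAs mainly through the seed, bases 2 to 8 of the mature strand. The C19MC hairpins arose by repeated duplication, so many mature strands are alike. In placental trophoblast the cluster is transcribed from the paternal allele. The neighbouring miR-371 to miR-373 cluster is known from embryonic stem cells, and miR-372 and miR-373 promote cell proliferation in germ cell tumours.

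Of the 59 mature sequences, 57 matched a RefSeq miRNA exactly, from 45 genes that all lie on the plus strand. On GRCh38.p14 these genes run over 95.8 kb, at chr19:53666679-53762430. The miR-371 to miR-373 genes follow after a gap of 25.2 kb, at chr19:53787675-53788773. GENCODE 29 places an exon of a longer gene over 1 of the C19MC genes, MIR519A2, which lies in an exon of the lincRNA AC011453.1. MIR371A, MIR371B and MIR372 overlap an exon of the lincRNA AC008753.3.

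The sequences below are those on which the detection and the change turn, as given in the deposited table, with the seed in capitals. The first 6 are the members that had enough reads to be tested.
miR-518e-3p: aAAGCGCUucccuucagagug
miR-512-3p: aAGUGCUGucauagcugagguc
miR-522-3p: aAAAUGGUucccuuuagagugu
miR-516a-5p: uUCUCGAGgaaagaagcacuuuc
miR-516b-5p: aUCUGGAGguaagaagcacuuu
miR-518c-5p: uCUCUGGAgggaagcacuuucug
The next pair shows a member counted in YAP5SA libraries alone and the near copy from which it differs by C12U, counted from 1 at the 5′ end of miR-517a-3p.
miR-517a-3p: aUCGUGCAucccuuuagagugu
miR-517c-3p: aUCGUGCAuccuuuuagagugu
The next is the sequence that 6 listed members share.
miR-519a-5p: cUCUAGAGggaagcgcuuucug
The last set compares a C19MC strand with the abundant neighbours that carry the same seed.
miR-520c-3p: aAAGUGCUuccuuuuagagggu
miR-372: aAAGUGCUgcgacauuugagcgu
miR-373-3p: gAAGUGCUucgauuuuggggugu

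Library totals were 217235 and 195283 counts for the vector replicates, with 136903 and 191954 for YAP5SA replicates 1 and 2. Values of a group are given below in the order of replicates 1 and 2. Whether replicates were separate cultures is not stated, so the spread behind a p-value may be technical only. YAP1 mRNA was not analysed here. CPM is the count per 1000000 reads of the TMM-adjusted library size used in the edgeR test. The 9 miRNAs listed here as gastric epithelial markers were all counted. They summed to 91506 to 95814 CPM in vector and 35967 to 47232 in YAP5SA libraries. In vector replicate 1, miR-7-5p and miR-148a-3p held 37222 and 29223 CPM of the sum. How specific the listed miRNAs are to gastric epithelium was not tested. Marker lists of embryonic stem, blood, muscle, neural, liver and endothelial cells summed to between 26.4 and 335 CPM in each library. Each list had reads for every marker. miRNAs with a mean count under 20 took 3.41% and 3.15% of all counts for vector, against 10.5% and 5.56% for YAP5SA.

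C19MC miRNAs were rare in these gastric cells. The 59 entries together held 174 and 129 counts in vector cells, against 292 and 186 in YAP5SA cells. These were 0.0801% of the library in vector replicate 1 (exact Clopper-Pearson 95% interval 0.0686 to 0.0929) and 0.0661% in vector replicate 2 (0.0552 to 0.0785). YAP5SA replicate 1 gave 0.213% (0.190 to 0.239) and YAP5SA replicate 2 gave 0.0969% (0.0835 to 0.112). YAP5SA replicate 1 thus stood above the other 3 libraries, while the intervals of YAP5SA replicate 2 and vector replicate 1 overlapped. Intervals cover counting error within a library only, not differences between cultures or preparations. Reads carry no molecular identifiers, so copies of the same molecule cannot be told from separate molecules. Fewer cells with a miRNA and less of it per cell cannot be told apart in such bulk samples.

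**Figure D1:**
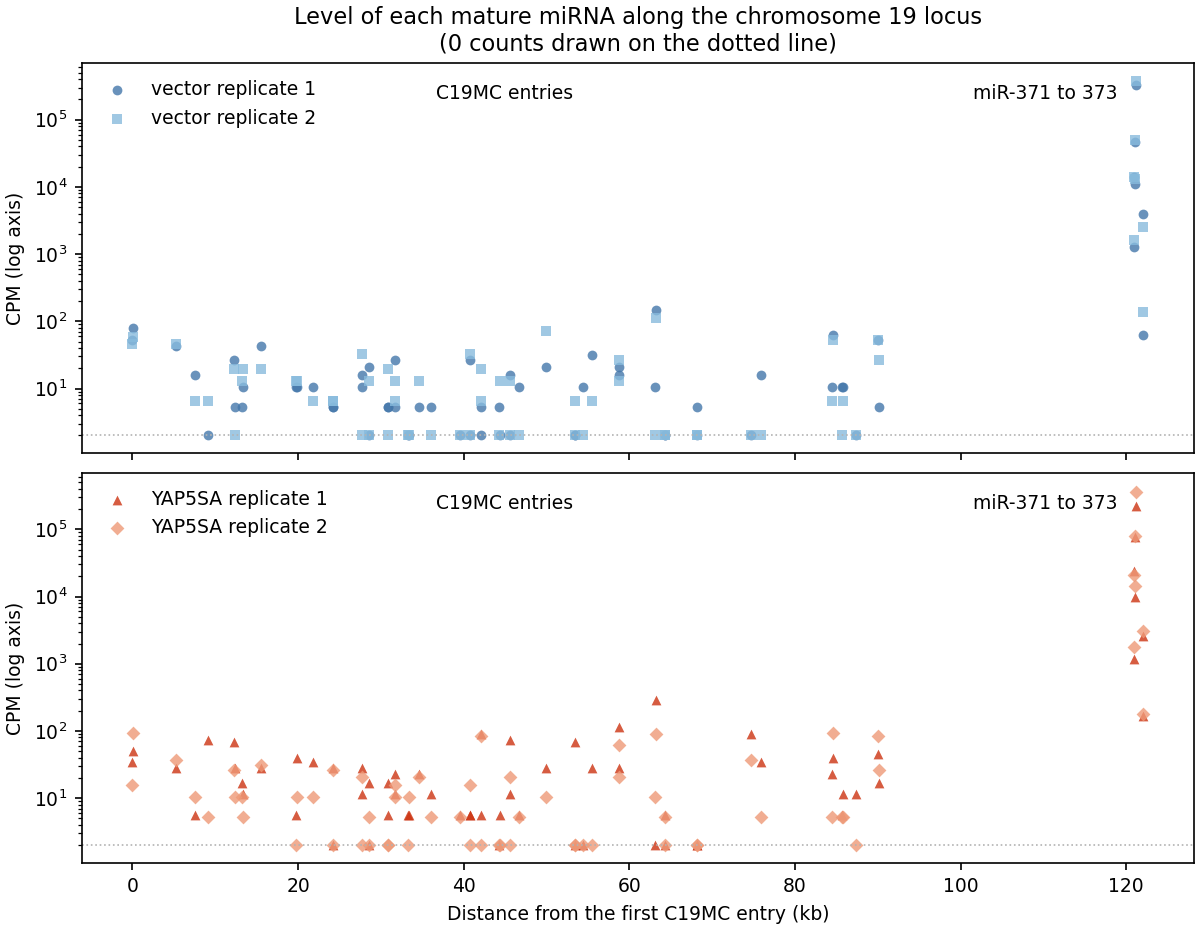
Level of each C19MC and miR-371 to miR-373 entry in CPM (log axis) against its distance in kb from the first C19MC entry, at the position listed in the deposited table, for 2 vector libraries (upper) and 2 YAP5SA libraries (lower). Entries with 0 counts are drawn on the dotted line. No C19MC entry passed 284 CPM, while 6 of the 7 neighbouring entries lay above 1000 CPM in every library.

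The neighbouring cluster was abundant in every library. Its 7 entries held 76634 and 69511 counts in vector cells, against 60053 and 90588 in YAP5SA cells. As shares of all counts this was 35.3% and 35.6% for vector, against 43.9% and 47.2% for YAP5SA. On the TMM scale the sums were 404888 and 456912 CPM for vector against 341111 and 474092 CPM for YAP5SA, and the groups overlapped. Reads of miR-371 to miR-373 outnumbered those of C19MC by 440 and 539 to 1 in the vector libraries. The same ratio was 206 and 487 to 1 for YAP5SA. The ratio needs no scaling between libraries, and that of YAP5SA replicate 2 lay between both vector values.

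Detection of C19MC entries was patchy. Of the 59 entries, 43 and 36 had at least 1 count in vector cells, against 50 and 39 in YAP5SA cells. These are 72.9%, 61.0%, 84.7% and 66.1% of the members, where the same shares over all 2039 listed miRNAs were 88.4%, 86.4%, 97.5% and 92.7%. In each library C19MC entries were therefore found less often than listed miRNAs in general, a description without a test. Of the 59 entries, 15 share their mature sequence with another and are counted apart here, and detection per distinct sequence was not counted. At least 3 counts were reached by 19, 16, 30 and 19 members in the same order of libraries. At the depth of the smallest library, 36.4 and 31.8 members would be expected for vector and 35 for YAP5SA replicate 2, against 50 counted in YAP5SA replicate 1. YAP5SA replicate 1 thus had the most members detected and the fewest counts.

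**Figure D2:**
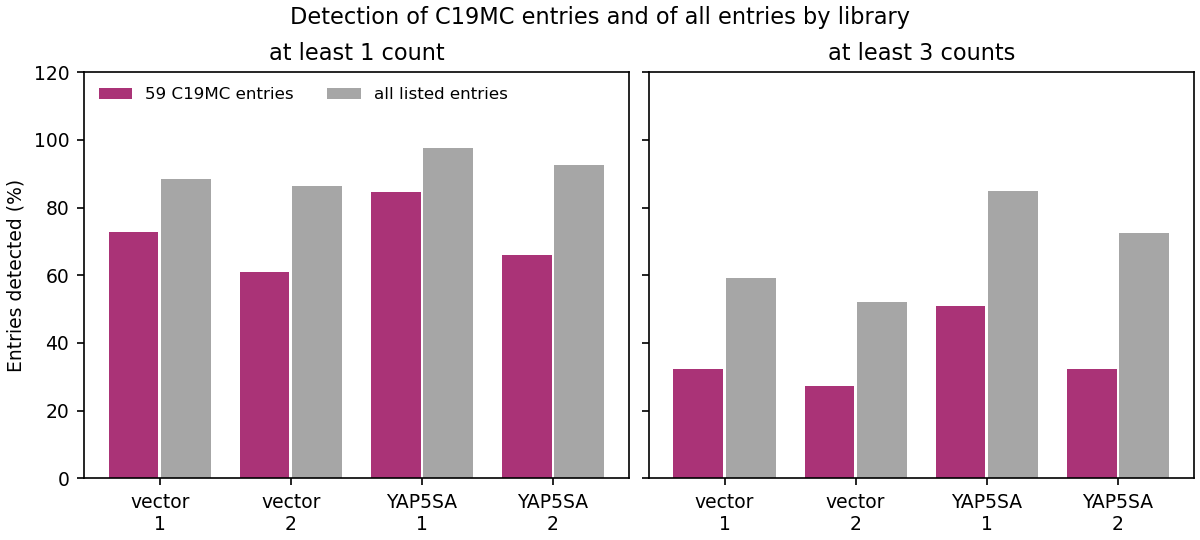
Share (%) of the 59 C19MC entries and of all 2039 listed entries with at least 1 count (left) and at least 3 counts (right) in each library. The C19MC bars lie below the bars of all entries in every library, and both are highest in YAP5SA replicate 1, at 84.7% and 97.5% with at least 1 count.

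Over the 4 libraries 56 members had a read and 3 had none, namely miR-520d-5p, miR-518a-5p and miR-518d-3p. For a member at 0 in a group, up to 3 counts over the libraries of that group remain possible. In all 4 libraries 26 members were counted, 44.1% of the members, where 75.6% of all listed miRNAs were. The median member had 8 counts over the 4 libraries, and the median listed miRNA 21. Only 13 members reached 20 counts in total, and the other 46 never had more than 13 in a library.

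The level was spread over the cluster, with no dominant member. miR-518e-3p was the most counted, with 28 and 17 counts in vector against 50 and 17 in YAP5SA cells. Its levels were 148 and 112 CPM against 284 and 89.0 CPM. It held 14.3% of the 781 C19MC counts. The groups overlapped, because YAP5SA replicate 1 was the highest and YAP5SA replicate 2 the lowest library.

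miR-512-3p, from MIR512-1 and MIR512-2 at the upstream end of the cluster, had 15 and 9 counts for vector against 9 and 18 for YAP5SA. miR-522-3p had 12 and 8 against 7 and 18, and miR-516a-5p had 10 and 8 against 8 and 16. For all 3 the YAP5SA replicates lay on either side of the vector replicates, so the groups overlapped. Their log2 fold changes, YAP5SA over vector, were 0.07 ± 0.52, 0.21 ± 0.56 and 0.30 ± 0.51 (± SE), with edgeR adjusted p of 0.95, 0.84 and 0.75. For miR-518e-3p it was 0.51 ± 0.61, with an adjusted p of 0.62.

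YAP5SA and vector cells were compared to ask which miRNAs change when YAP5SA is overexpressed. Of the 59 members, 6 passed edgeR's filter on low counts, and 53 did not. By edgeR's quasi-likelihood test with Benjamini-Hochberg adjustment over all 602 miRNAs tested, miR-518c-5p and miR-516b-5p were called higher. None of the 6 tested members was called lower. Over all tested miRNAs 11.8% were called higher and 3.49% lower. At an unadjusted p under 0.05 there were also 2 of the 6 members, beside 33.2% of all tested miRNAs, and neither was lower. The 6 tested members had a median log2 fold change of 0.40, beside 0.11 for all tested miRNAs. All 6 lay above 0 in this fit, but 4 lay below 0 with a filter at a mean of 10 CPM or none, and 3 without YAP5SA replicate 2 or on the authors' log2 values. With library totals as the scale the median was 0.93, beside 0.61 for all, and with scaling from abundant miRNAs 1.16, beside 0.83. With a filter at a mean of 10 CPM or none, the median of the 6 was -0.06. That lay below the 0.27 and 0.28 of all miRNAs tested in those fits, but these numbered 1791 and 2034 in place of 602. The comparison is thus with other sets of miRNAs, and the median of the 602 in those fits was not computed. Entries outside C19MC also had lower values there, such as miR-371a-5p (0.69 in the main fit, 0.26 and 0.25) and miR-372 (-0.28, then -0.65 and -0.66). A member can pass the filter through a high level in YAP5SA libraries alone. Both called members did so, with vector counts of 1 and 3 and of 4 and 2. miR-512-5p, with 10 and 7 counts for vector against 6 and 3 for YAP5SA, was not tested. The count of calls and the median therefore do not speak for the 59.

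miR-518c-5p is cut from MIR518C at chr19:53708735-53708835 on the plus strand. It had 1 and 3 counts in the vector libraries against 16 in each YAP5SA library. In CPM this was 5.28 and 19.7 against 90.9 and 83.7, and the groups did not overlap. By edgeR it rose by a log2 fold change of 2.81 ± 0.64 (± SE), with an adjusted p of 0.030. It rests on 4 vector counts, and the ratio of pooled counts was 7.44 with an exact binomial 95% interval of 2.64 to 29.0, for counting error only. Its adjusted p was 0.102 and 0.0717 without YAP5SA replicate 1 or 2, at log2 fold changes of 2.75 and 2.79, so the call was lost. Without vector replicate 1 or 2 the log2 fold changes were 2.11 and 3.88 (adjusted p = 0.271 and 0.211, edgeR), in fits that left 1 vector library and called none of the 602 miRNAs.

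miR-516b-5p is cut from MIR516B2 at chr19:53725442-53725526 and MIR516B1 at chr19:53736845-53736934, and its counts cannot be split between them. It had 4 and 2 counts for vector against 20 and 12 for YAP5SA. In CPM this was 21.1 and 13.1 against 114 and 62.8, again without overlap between the groups. By edgeR it rose by a log2 fold change of 2.28 ± 0.61 (± SE), with an adjusted p of 0.046. The ratio of pooled counts was 4.96 (2.05 to 14.5). The adjusted p was 0.259 without YAP5SA replicate 1, and 0.301 and 0.259 in the fits without vector replicate 1 or 2, where no miRNA was called. Without YAP5SA replicate 2 it was 0.0497 at a log2 fold change of 2.57, and the call was kept. With DESeq2 neither member passed (adjusted p = 0.10 for miR-518c-5p and 0.17 for miR-516b-5p), nor with limma-voom (0.067 and 0.096).

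The letters UCUGGAG, the seed of miR-516b-5p, were also found in miR-518c-5p, where they start at base 3 in place of base 2. They were searched on the mature strand only, and were in 7 of the 2039 listed mature sequences (0.343%), 2 of them in C19MC. The letters were picked because both called members carry them, so their rarity is no support for a link to the rise. Such a link was not tested. The seeds themselves differ, and no other listed miRNA has either. miR-516a-5p, the nearest listed relative of miR-516b-5p at 4 edits, was among the tested members given above that were not called.

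**Figure D3:**
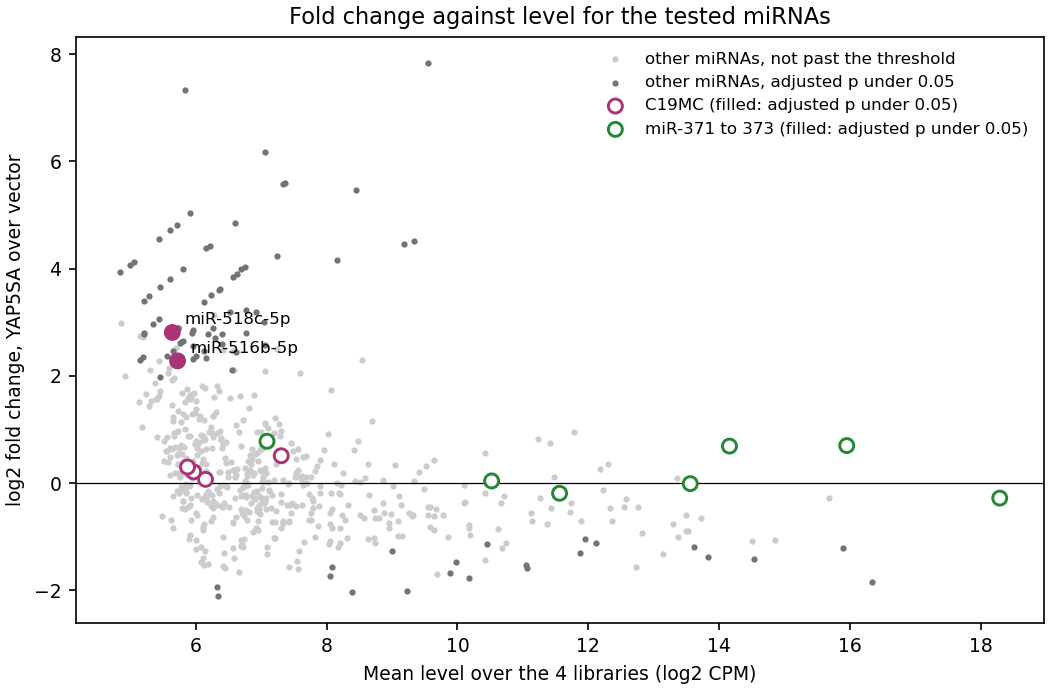
The log2 fold change of YAP5SA over vector against the mean level (log2 CPM) for the 602 miRNAs tested by edgeR, with the 6 tested C19MC members and the 7 miR-371 to miR-373 entries ringed and filled where the adjusted p is under 0.05. miR-518c-5p and miR-516b-5p lie at 2.81 and 2.28 among other rare miRNAs called higher, and the remaining C19MC members lie between 0.07 and 0.51.

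Among members that were not tested, miR-517c-3p showed the sharpest contrast. It had 0 counts in both vector libraries, against 16 and 7 for YAP5SA, or 90.9 and 36.6 CPM. It was at least 7.13-fold higher against a floor of 3 counts over the vector group. The exact 95% interval used for the ratios of the other members begins lower, at 5.35. It missed the filter because YAP5SA replicate 2 was too low, and the looser filters that did test it gave a log2 fold change of 6.26 in edgeR. The adjusted p was 0.0293 with no filter and 0.0646 with a filter at a mean of 10 CPM. MIR517C lies at chr19:53741313-53741407. Its near copies miR-517a-3p and miR-517b-3p, which share 1 sequence, had 2 counts in total each. Counts listed under miR-517c-3p thus made up most of this seed group in the YAP5SA libraries. How reads were assigned between near copies is not given, so whether these reads carried the C12U base is not known. In vector the group had only 2 counts, both of miR-517b-3p.

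miR-517-5p, the 5p arm that the MIR517A, MIR517B and MIR517C hairpins share, had 3 and 2 counts for vector against 13 and 4 for YAP5SA, without overlap in CPM, at 15.9 and 13.1 against 73.8 and 20.9. miR-515-5p had 5 and 3 against 12 and 5 counts, at 26.4 and 19.7 against 68.2 and 26.2 CPM, so the groups overlapped. For both, YAP5SA replicate 1 had the most reads of the 4 libraries.

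Other members pointed the opposite way. miR-512-5p had 10 and 7 counts for vector against 6 and 3 for YAP5SA, or 52.8 and 46.0 against 34.1 and 15.7 CPM, without overlap. miR-1323 had 8 and 7 against 5 and 7 counts, at 42.3 and 46.0 against 28.4 and 36.6 CPM. miR-521 had 4 and 11 against 5 and 2 counts, and its groups overlapped. The ratios of pooled counts were 0.492 (0.193 to 1.17) for miR-512-5p, 0.744 (0.318 to 1.70) for miR-1323 and 0.434 (0.150 to 1.13) for miR-521, and each interval includes 1. miR-520f had 8 and 3 against 5 and 6 counts, a ratio of 0.930 (0.366 to 2.37), and its groups overlapped.

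**Figure D4:**
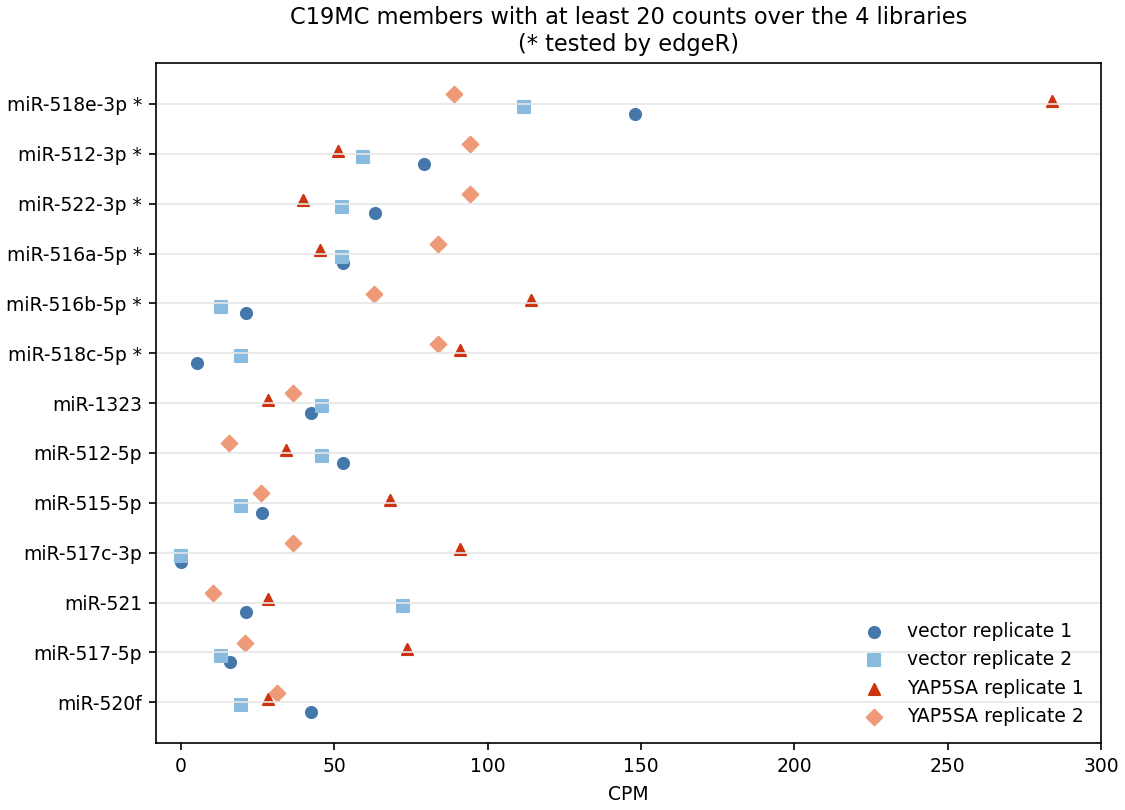
Level in CPM of the 13 C19MC members with at least 20 counts over the 4 libraries, with 1 point per library, and an asterisk on those that edgeR tested. The YAP5SA points of miR-516b-5p, miR-518c-5p, miR-517c-3p and miR-517-5p lie to the right of both vector points, and those of miR-512-5p and miR-1323 to the left.

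Over all 59 members, 12 had both YAP5SA libraries above both vector libraries in CPM and 6 had both below. That is 20.3% higher and 10.2% lower, where 34.3% and 11.7% of all listed miRNAs did the same. The members' share of non-overlapping rises was thus smaller than that of the table as a whole. However, the median member had 8 counts and the median listed miRNA 21, and libraries tied at 0 count as overlapping here. The part of low counts in this difference was not tested. At 0 in the vector libraries with reads in YAP5SA were 9 members, and 4 were at 0 in YAP5SA with reads in the vector libraries. Apart from miR-517c-3p, none of these had more than 3 counts in total. The same shares over all listed miRNAs were not counted, so these numbers show no gain or loss particular to the members.

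YAP5SA replicate 1 decided most of the difference in the summed level. It held the highest CPM of 28 members (47.5%), where it held that of 52.1% of all listed miRNAs and 57.6% of the 1753 with a mean count under 20. YAP5SA replicate 2 was the highest library for 5 members. The summed blood, embryonic stem cell, muscle and endothelial markers were also highest in YAP5SA replicate 1, at 335, 329, 216 and 170 CPM. The neural sum was highest in YAP5SA replicate 2, at 152 CPM. The liver and gastric sums were lowest in YAP5SA replicate 1, at 28.4 and 35967 CPM. The part of these markers in the result was not tested. The mean C19MC share of counts was 2.12 times higher in YAP5SA than in vector libraries, and 1.33 times without YAP5SA replicate 1. With TMM-scaled library sizes the summed level was 919 and 848 CPM for vector against 1659 and 973 CPM for YAP5SA, a ratio of 1.49.

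The C19MC sum was also set beside the rare miRNAs of the table. Of its 59 entries 58 had a mean count under 20, which is 3.31% of the 1753 such entries. They and the remaining member held 2.35% and 2.10% as many counts as that rare class for vector, against 2.04% and 1.74% for YAP5SA. By this measure both YAP5SA libraries lay below both vector libraries. The part of the rare class in the C19MC values was not tested.

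**Figure D5:**
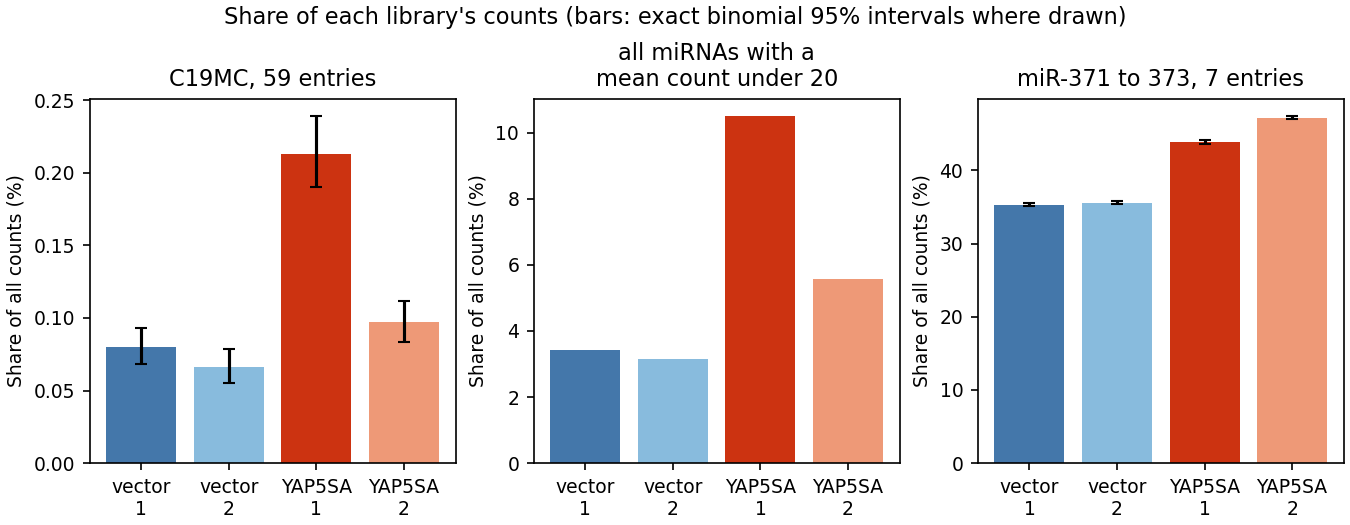
Share (%) of each library's counts held by the 59 C19MC entries (left), by all miRNAs with a mean count under 20 (middle) and by the 7 miR-371 to miR-373 entries (right), with exact binomial 95% intervals on the outer panels. YAP5SA replicate 1 is highest on the left and in the middle, at 0.213% and 10.5%, and YAP5SA replicate 2 is highest on the right, at 47.2%.

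In the miR-371 to miR-373 cluster edgeR tested all 7 entries and called none after adjustment, and 2 of the 7 had an unadjusted p under 0.05, beside the 33.2% of all tested miRNAs. miR-371a-5p had 2655 and 2118 counts for vector against 4260 and 4019 for YAP5SA. Its log2 fold change was 0.69 ± 0.25 (± SE), with an edgeR adjusted p of 0.10. miR-371b-3p had 8882 and 7570 against 13711 and 15099 counts, at a log2 fold change of 0.70 ± 0.26 and an edgeR adjusted p of 0.11. The groups did not overlap for either. Both were called higher by edgeR with library totals as the scale, at log2 fold changes of 1.23 and 1.22 (adjusted p = 0.000203 and 2.21e-05). With scaling from abundant miRNAs they were 1.45 and 1.44 (adjusted p = 0.000815 and 0.000454, edgeR). In edgeR fits with a library left out, miR-371a-5p was called without YAP5SA replicate 2 (adjusted p = 0.0467) and miR-371b-3p without YAP5SA replicate 1 (0.0479). miR-371a-5p lies whole within the reverse complement of miR-371b-3p, and how the counting used strand is not given, so reads of these opposite-strand entries cannot be told apart.

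The other 5 entries had log2 fold changes of -0.28 ± 0.33 for miR-372, -0.01 ± 0.29 for miR-371a-3p, 0.04 ± 0.33 for miR-371b-5p, -0.19 ± 0.31 for miR-373-3p and 0.78 ± 0.52 for miR-373-5p. Their adjusted p ran from 0.35 to 0.98 by edgeR. Without YAP5SA replicate 2, miR-372 was called lower at -0.73 (adjusted p = 0.0316, edgeR), and with scaling from abundant miRNAs miR-371a-3p was called higher at 0.70 (0.0381). The cluster's median was 0.04. All 3 of its members with changes below 0 turned positive with library totals as the scale, at 0.47 for miR-371a-3p, 0.20 for miR-372 and 0.29 for miR-373-3p, where the median of all tested miRNAs was 0.61. Whether this cluster and C19MC differed in their response was not tested.

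The seed AAGUGCU links both clusters. miR-520a-3p, miR-520b, miR-520c-3p, miR-520d-3p and miR-520e carry it, as do miR-372, miR-373-3p and the miR-302 family. The 5 C19MC entries held 7 and 10 of the 62793 and 57594 counts with this seed for vector, against 30 and 8 of 40194 and 68439 for YAP5SA. They were at most 0.0746% of them, in YAP5SA replicate 1. In that library miR-520e had 13 counts and miR-520d-3p 12, and neither passed 1 in any other library. miR-520c-3p went the other way, with 5 and 5 counts against 1 and 3. Outside the clusters the most counted miRNA with this seed was miR-302b-3p, at 133 counts over the 4 libraries. Its log2 fold change was 0.45 ± 0.43, with an edgeR adjusted p of 0.52.

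The seed AAAGUGC of the miR-17 family, whose members promote the cell cycle, is carried by miR-526b-3p and miR-519d. They had 5 and 5 counts together for vector against 6 and 1 for YAP5SA, at most 2.88% of the counts with this seed in a library. miR-17-5p, miR-93-5p and miR-20a-5p held most of the rest. Their log2 fold changes were -0.99 ± 0.34, -0.84 ± 0.33 and -1.14 ± 0.38, with edgeR adjusted p of 0.087, 0.12 and 0.085. In all, the 59 members carry 29 seeds, and 11 members share theirs with a listed miRNA outside C19MC.

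The likeness of the members limits how reads can be assigned. Of the 59 entries, 15 have a mature sequence identical to another, in 5 groups, and 33 lie within 2 edits of another member. None lies closer than 4 edits to a listed miRNA outside the cluster. The 6 entries that share the miR-519a-5p sequence had 17 and 7 counts together for vector against 10 and 8 for YAP5SA. Although their mature strands are identical, these entries had from 4 to 14 counts each over the 4 libraries. Such entries are therefore best read as 1 sum, and the split between them is uncertain. miR-518c-5p lies 2 edits from its nearest member, miR-526a, which had 2 counts in total.

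The authors' deposited table gave a p under 0.05 for 8 members, 5 with a fold above 1 and 3 below. In the authors' deposited table the same was true of 4.27% of all listed miRNAs with a fold above 1 and 5.05% below. Of the 8, 4 had at most 5 counts over the 4 libraries. For example, the authors' deposited table gave miR-520a-3p a fold change of 0.391 with p = 0.0028, on 1 count in each vector library and 0 in each YAP5SA library. The authors' deposited table gave miR-518c-5p a fold change of 3.06 with p = 0.035 and miR-516b-5p a fold change of 2.55 with p = 0.048.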

How the data were processed

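Small RNA libraries of HFE-145 cells were made with an NEB kit from total RNA isolated with easy-BLUE, per the labels' protocols, and grouped by title into vector and YAP5SA, 2 each. Per the file headers, the authors deposited raw, whole-number read counts for each mature miRNA. The authors also deposited log2 normalized read counts, a fold change (YAP5SA over vector) and a p-value. FastQC and hg19 are named in the submitters' processing notes. The sources used here do not give the aligner, how reads were counted (by strand or not, and where they match several miRNAs), or how the normalized values and p-values were made.

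The test of counts was the quasi-likelihood test of edgeR 4.0.16 (R 4.3.3) with TMM, edgeR's own filter for low counts, and the group as model term. Its p-values were adjusted over the 602 miRNAs tested by Benjamini-Hochberg, at a threshold of 0.05. The SE was the log2 fold change divided by the square root of F. The steps were checked on simulated data. Exact intervals were made with SciPy 1.17.1, and the number detected at the smallest library total with the hypergeometric formula. Edits are the smallest number of substitutions, insertions and deletions between mature sequences. Positions are from RefSeq on GRCh38.p14 by exact sequence match, and an hg19 annotation was not used here. The alternatives comprised other scalings and filters, a replicate block, each library left out, DESeq2 1.42.0, limma-voom and limma 3.58.1 on the authors' log2 values. Leaving out a library kept the same 602 miRNAs. The members, lists and tests were chosen with earlier results of these data known. Members were named if tested, called in any fit or at 20 counts in total. Those given as examples at lower counts (miR-520 members, miR-526a, miR-526b-3p, miR-519d and miR-517a-3p or miR-517b-3p) were chosen after their values were seen or for their sequence.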

Additional observations from a re-analysis of the deposited data

How the results depend on the processing

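Of 71 miRNAs called higher and 21 lower over the whole table, library totals gave 147 and 12, scaling from abundant miRNAs 163 and 4, filtering at a 10 CPM mean 19 and 1, no filter 34 and 14, DESeq2 36 and 18, limma-voom 21 and 10, and limma on the authors' log2 values 0 and 0 (129 with an unadjusted p under 0.05). Leaving out a library gave 0 to 51 higher and 0 to 59 lower. The 0 came without vector replicate 1 or 2, by edgeR, with 99 and 118 at an unadjusted p under 0.05. The replicate block gave 102 and 34. It kept both C19MC calls. The labels do not say whether same-numbered libraries were handled together. The correlation between their deviations was 0.02, which cannot decide this with 2 libraries per group.

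The 2 C19MC members called higher became 0 with the 10 CPM filter, with DESeq2, with limma-voom and with limma on the authors' log2 values. With no filter the count was 1, miR-517c-3p. It was 0 to 1 with a library left out, and the only call that was kept was miR-516b-5p without YAP5SA replicate 2. Other scalings and the block gave 2. No setting called a member lower. The adjusted p of miR-518c-5p ranged up to 0.271 and that of miR-516b-5p up to 0.301.

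The median log2 fold change of tested members, 0.40, was 0.93 with library totals, 1.16 with scaling from abundant miRNAs, 0.24 with limma-voom and -0.16 on the authors' log2 values. Over the 31 members tested at 10 CPM it was 0.15, below the 0.27 of all miRNAs tested there. Over the 56 tested with no filter it was 0.04, below the 0.28 of all. With a library left out the members' median was 0.31 to 0.67. The calls among miR-371 to miR-373, 0 at first, were 2 with library totals (miR-371a-5p and miR-371b-3p, higher), 3 with scaling from abundant miRNAs (the same and miR-371a-3p, higher), and 0 to 2 with a library left out.

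Members that were not called changed sign. With the 10 CPM filter and with none, the log2 fold change was -0.32 and -0.33 for miR-512-3p, -0.02 and -0.03 for miR-518e-3p, -0.17 and -0.18 for miR-522-3p, -0.09 and -0.10 for miR-516a-5p, and -0.33 and -0.34 for miR-371b-5p. For miR-371b-5p it was -0.02 with relative log expression factors and with DESeq2. With scaling from abundant miRNAs it was 0.70 for miR-371a-3p, 0.43 for miR-372 and 0.54 for miR-373-3p, and with library totals 0.47, 0.20 and 0.29. On the authors' log2 values it was 0.64 for miR-371a-3p, 0.28 for miR-373-3p, -0.59 for miR-512-3p, -0.62 for miR-522-3p and -0.49 for miR-516a-5p. With a library left out the range was -0.39 to 0.23 for miR-371a-3p, -0.73 to 0.01 for miR-372, -0.47 to 0.16 for miR-373-3p, -0.53 to 0.43 for miR-512-3p, -0.55 to 1.03 for miR-518e-3p, -0.63 to 0.68 for miR-522-3p, -0.29 to 0.66 for miR-516a-5p and -0.38 to 0.32 for miR-371b-5p. The cause of these changes was not tested.

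At least 3 counts in place of 1 left 19 and 16 members detected for vector against 30 and 19 for YAP5SA. The C19MC share ratio of 2.12 was 2.15 without the 3 most abundant miRNAs in the denominator and 2.22 with each distinct sequence once. It was 1.33 to 2.92 with a library left out. Chosen after seeing the data were a ratio on TMM-scaled sizes, 1.49, and one without the members called higher, 1.91. With at most 50 counts for any member in a library, small changes were not detectable at this depth.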
